A study of Mus musculus with 11 samples.

Results

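4C11− and 4C are lines of a murine model of melanoma progression, and the 3 libraries of 4C11− were compared with the 3 libraries of 4C among 11 libraries in all. The lines descend from melan-a, a spontaneously immortalized melanocyte line, by repeated cycles of blocked adhesion. Per the labels, 4C is pre-malignant and does not form tumors, whereas 4C11− is a melanoma that does not metastasize, so the comparison addresses which transcripts accompany the gain of tumorigenicity. Both lines were cultured in RPMI with 5% fetal bovine serum and without the phorbol ester PMA, which only melan-a received, and neither carries an engineered allele or a treatment. The libraries of a line are triplicate cultures of that 1 line, so that p-values measure the spread between cultures. A difference linked to tumorigenicity cannot be told apart from any other difference between the 2 derived lines.

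Melanocytes arise from the neural crest, and their identity rests on transcription factors such as Mitf and Sox10 and on the enzymes and structural proteins of the melanosome. During progression, melanoma cells often lose this program, take up mesenchymal features, and rebuild their adhesion to the surrounding matrix. Secreted Wnt, insulin-like and TAM receptor ligands, together with the basement membrane, are among the cues that melanocytic cells exchange with their surroundings.

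The deposited values are log2 CPM values (counts relative to the library total, here also brought to a common distribution across libraries) for 14272 genes. Approximate depth, read from the steps that single reads leave among low values, was 5.67 to 7.08 M reads in 4C and 4.58 to 7.42 M in 4C11−. A value at or below that of 3 reads in all libraries of a line was taken as the floor, and a change against the floor is given as a bound. Replicate 1 of 4C11− stood apart. Across genes, its Pearson correlation with the other libraries of its own line was 0.888 and 0.924, whereas replicates 2 and 3 correlated at 0.971 with each other and at 0.932 to 0.943 with 4C. It was also the shallowest of the 6 libraries, with 1098 genes at 3 reads or fewer against 522 and 523. Results are therefore also given without it.

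The label of melanocytic cells was checked against melanocyte markers. Of 18 listed markers, 17 had a value, and only 6 of them were above 3 reads in all libraries of 4C and 3 in all libraries of 4C11−. The gene of tyrosinase, Tyr, was at −3.44, −2.44 and −2.01 log2 CPM in 4C and at −3.15, −3.44 and −3.44 in 4C11−, at 3 reads or fewer in all 6 libraries. Mitf lay between −0.70 and 1.14 log2 CPM in these libraries, and Pax3, a neural crest factor, between 5.10 and 5.60. The melanosomal program was thus near the floor in both lines, and 0 of the 17 markers passed the test between them, with a median log2 difference of −0.29 (−0.20 with floor genes at their bound). In contrast, the fibroblast-associated collagen gene Col1a1 was at 10.4 to 10.9 log2 CPM in the 6 libraries, against means of 1.42 in melan-a and 1.76 in 4C11+. Col3a1, Col6a3 and Pdgfra had means of 5.40, 7.95 and 7.53 in 4C and 5.42, 8.25 and 8.06 in 4C11−. Their means were −2.24, −0.28 and 5.14 in melan-a and −1.43, 0.01 and 2.35 in 4C11+. Fbln1 was at 6.8 in 4C, 7.2 in 4C11−, 5.2 in melan-a and 7.1 in 4C11+. Differences from melan-a and 4C11+ were not tested. Of the fibroblast, smooth muscle and leukocyte markers with a value (5, 7 and 2), 0 passed the test between 4C and 4C11−. In bulk RNA, fewer expressing cells and less RNA per cell cannot be told apart.

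At an adjusted p under 0.05 (limma), 180 genes were higher and 58 lower in 4C11−, 238 of 14272 or 1.67%. The higher calls amounted to 1.26% of the genes tested and the lower calls to 0.406%. An unadjusted p under 0.05 was found for 1926 genes. The 3 libraries of one line did not overlap the 3 of the other in 2754 genes (19.3%), which include all 238. Without 4C11− replicate 1, the counts were 121 higher and 68 lower, and 143 of the 238 genes were called again. In total 82 of the 238 passed the threshold in each of the 6 fits that left out 1 library, 65 of them higher and 17 lower, and all 238 had the same sign in each of these fits. The median over all genes was 0.01 on the log2 scale.

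**Figure D1:**
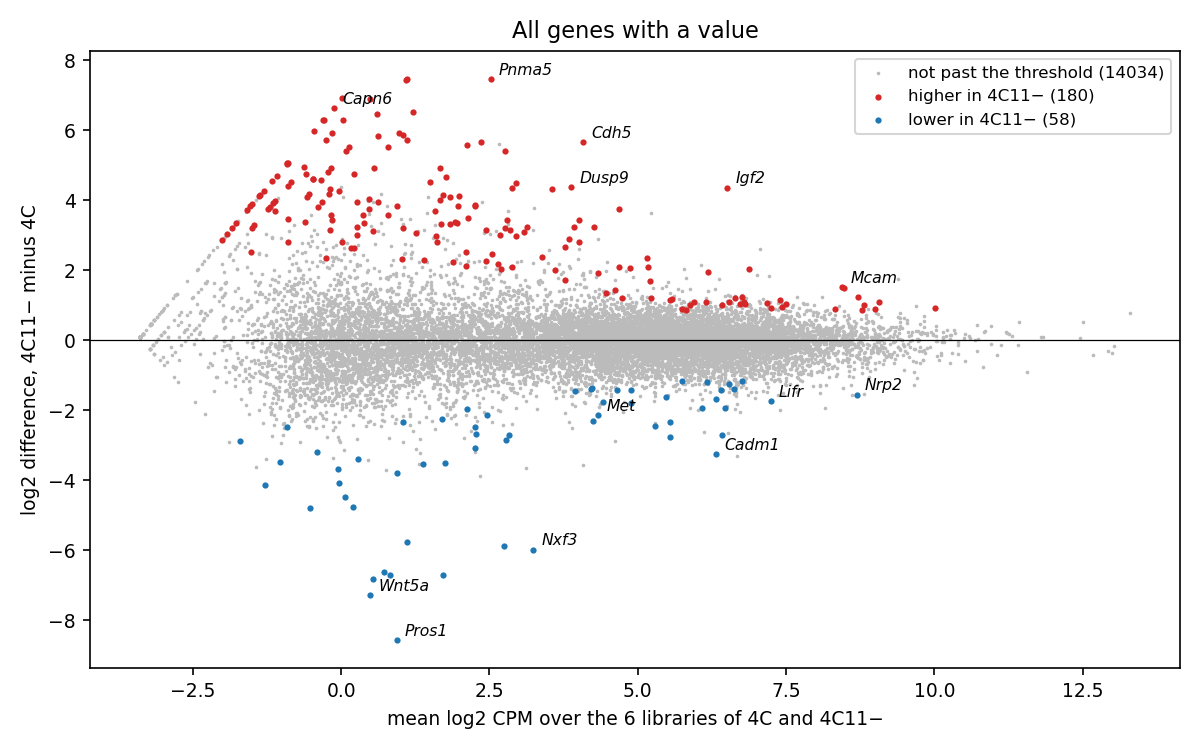
Log2 difference (4C11− minus 4C, vertical axis) of the 14272 genes against their mean log2 CPM over the 6 libraries (horizontal axis), with 180 higher genes in red and 58 lower genes in blue (adjusted p under 0.05, limma). Higher calls outnumber lower calls, and the largest differences in both directions belong to genes near the floor in one of the lines.

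Among the lower genes, the sharpest loss was that of Pros1 (chr16:62854307-62929346, plus strand, GRCm38), which encodes protein S, a secreted ligand of the TAM receptor tyrosine kinases and an anticoagulant cofactor. Its level was 4.70, 5.43 and 5.51 log2 CPM in 4C and −3.15, −3.44 and −3.44 in 4C11−. All 3 libraries of 4C11− were at the floor, and Pros1 was at least 110-fold lower (adjusted p = 6.16e-07, SE 0.36 on the log2 scale, lower in 3 of 3 libraries). It was expressed in the remaining lines, with means of 4.70 log2 CPM in melan-a and 6.06 in 4C11+. The other members of the pathway did not pass the test. Gas6, the second TAM ligand, was at 8.35 ± 0.27 (SD, n = 3) log2 CPM in 4C and 8.35 ± 0.04 in 4C11−, and the receptor genes Axl, Tyro3 and Mertk differed by −0.48, 0.67 and 0.40 on the log2 scale (adjusted p = 0.67, 0.32 and 0.75). Hence 1 of 5 members was called.

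Wnt5a (chr14:28504750-28527448, plus strand), a ligand of noncanonical Wnt signaling linked to melanoma motility, was at 4.21, 4.10 and 4.10 log2 CPM in 4C. In 4C11− it was at −3.15 in each library, at the floor, so that it was at least 52.2-fold lower (adjusted p = 0.00282). Its level was also low in 4C11+ (mean −2.49), and the 2 melan-a libraries had a mean of 2.35. Of 38 Wnt pathway genes with a value, 1 was higher and 2 were lower, where 1.67% of all genes were called. The median of the list was −0.32. Rnf43, whose product removes Frizzled receptors from the cell surface, fell by 4.08 on the log2 scale, from 2.13, 1.15 and 2.72 to 0.06, −3.15 and −3.15 (adjusted p = 0.048). Wnt2b, a canonical ligand, rose by 2.31 (adjusted p = 0.035), from −0.25, −0.21 and 0.06 to 2.12, 2.32 and 2.09, but the call was lost without 4C11− replicate 1 (adjusted p = 0.070). The abundant Ctnnb1, which encodes β-catenin, was at 10.4 to 10.6 log2 CPM in 4C and 10.1 to 10.5 in 4C11−.

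Further genes fell to the floor or near it. Xylt1, which encodes the xylosyltransferase that starts glycosaminoglycan chains, was at 4.27, 3.99 and 4.29 log2 CPM in 4C and at the floor in 4C11−, at least 54.0-fold lower (adjusted p = 4.58e-05). Ptprn, a receptor-type phosphatase of secretory granules, was at least 48.6-fold lower (adjusted p = 0.000483), and Dirc2, a membrane transporter gene on the same chromosome as Pros1, at least 46.0-fold lower (adjusted p = 0.0079). Epha4, an ephrin receptor, was at least 10.9-fold lower (adjusted p = 0.000988). In total 11 of the 58 lower genes were at 3 reads or fewer in all 3 libraries of 4C11−, and of these 5 were above 3 reads in both melan-a libraries and 5 in all 4C11+ libraries. Pcsk6, a proprotein convertase, fell by 6.71 on the log2 scale (SE 0.87, adjusted p = 0.0021), from 4.73, 5.85 and 4.65 to 0.26, −3.15 and −2.01.

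Other genes were lower with a wider spread. Nxf3, an X-linked relative of mRNA export factors, fell from 5.56, 6.23 and 6.88 log2 CPM to −0.70, 0.06 and 1.35. It was called in each fit without 1 library. On the other hand, the intestinal homeobox gene Cdx2, the transsulfuration enzyme gene Cth, Rnf43 and the cytokine receptor subunit gene Il18rap were called in just 1 of these 6 fits and the sulfotransferase gene Gal3st2 in 2. The highest adjusted p of these 5 genes in any such fit was 0.113 to 0.197. Slc9a9, an endosomal sodium-proton exchanger, was called in 5 of 6.

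Large rises belonged to genes at or near the floor in 4C. Htr3a (chr9:48899213-48911099, minus strand), a subunit of the serotonin-gated 5-HT3 channel, was at −1.01, −3.44 and −3.44 log2 CPM in 4C and 5.13, 5.58 and 3.71 in 4C11−, at least 67.0-fold higher (adjusted p = 0.00048). Pnma5, an X-linked gene of the paraneoplastic antigen family, rose by 7.45 on the log2 scale (SE 0.64, adjusted p = 0.00013), from 0.40, −2.01 and −2.01 to 6.07, 6.26 and 6.42. No library of 4C11− overlapped one of 4C for these 2 genes, and each call was kept in the 6 fits without 1 library.

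The promoters of the 2 most changed genes in each direction that have a window in the RefSeq table (GRCm38.p6, 250 bases before to 50 after the start) are shown to compare their CG content, with each CG dinucleotide in capitals. Of the 30 genes with the largest differences, 18 had such a window. Those of Pros1 (chr16:62854057-62854356, plus strand) and Pcsk6 (chr7:65861886-65862185, plus strand) are from lower genes, and those of Pnma5 (chrX:73037054-73037353, minus strand) and Zfp618 (chr4:62965317-62965616, plus strand) from higher genes.
Pros1: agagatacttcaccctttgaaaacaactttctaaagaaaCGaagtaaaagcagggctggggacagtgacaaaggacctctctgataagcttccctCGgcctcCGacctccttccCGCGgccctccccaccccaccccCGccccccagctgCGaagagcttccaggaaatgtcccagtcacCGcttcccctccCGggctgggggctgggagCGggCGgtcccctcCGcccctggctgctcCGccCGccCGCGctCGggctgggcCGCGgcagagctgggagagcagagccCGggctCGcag
Pcsk6: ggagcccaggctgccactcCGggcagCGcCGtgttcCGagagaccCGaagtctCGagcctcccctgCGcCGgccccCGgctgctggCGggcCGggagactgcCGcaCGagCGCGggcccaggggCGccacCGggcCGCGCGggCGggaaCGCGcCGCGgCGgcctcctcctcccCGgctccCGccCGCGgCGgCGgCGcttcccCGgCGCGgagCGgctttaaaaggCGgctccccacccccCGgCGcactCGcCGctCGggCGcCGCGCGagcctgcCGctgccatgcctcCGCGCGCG
Pnma5: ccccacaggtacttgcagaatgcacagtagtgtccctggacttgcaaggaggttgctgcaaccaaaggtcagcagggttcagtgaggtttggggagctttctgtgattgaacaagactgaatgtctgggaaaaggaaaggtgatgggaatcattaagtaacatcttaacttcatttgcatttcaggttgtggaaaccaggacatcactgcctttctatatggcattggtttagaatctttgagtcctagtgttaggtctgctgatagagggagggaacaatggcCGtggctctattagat
Zfp618: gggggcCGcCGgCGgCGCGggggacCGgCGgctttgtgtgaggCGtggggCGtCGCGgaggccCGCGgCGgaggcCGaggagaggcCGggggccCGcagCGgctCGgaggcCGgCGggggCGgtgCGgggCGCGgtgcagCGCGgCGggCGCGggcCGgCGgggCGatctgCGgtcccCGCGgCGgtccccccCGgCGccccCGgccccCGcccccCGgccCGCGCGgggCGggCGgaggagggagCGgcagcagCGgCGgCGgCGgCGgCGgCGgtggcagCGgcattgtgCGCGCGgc
The 2 letters CG, which read the same on both strands, were found 21 times for Pros1, 52 for Pcsk6, 1 for Pnma5 and 59 for Zfp618, while the median of the windows of 9928 genes was 21 and 99.5% of them held at least 1. Of these windows, 0.484% held fewer than that of Pnma5 and 99.8% fewer than that of Zfp618, and 47.5% and 98.9% held fewer than those of Pros1 and Pcsk6.

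A total of 61 of the 180 higher genes were at 3 reads or fewer in all 3 libraries of 4C. When the remaining lines were considered, 36 of the 61 were above 3 reads in both melan-a libraries and 43 in all 4C11+ libraries. In 26 of them both held, that is, the transcript was detected in melan-a, at the floor in 4C, and detected again in 4C11− and 4C11+. The deposited genes had to reach 1 CPM in at least 4 libraries, so a gene at the floor in all of 4C could enter only through a library of melan-a or 4C11+ besides 4C11−, and the filter partly fixes these counts, as it does those of the 11 lower genes at the floor in 4C11−. The comparisons also share the 4C libraries, and melan-a was grown with PMA, hence the order is a description. Capn6, a calpain-like protein that binds microtubules, was at −3.44 log2 CPM in all 4C libraries and at 2.18, 4.16 and 3.26 in 4C11−, with means of 8.20 in melan-a and 4.91 in 4C11+. It was higher in 4C11− by at least 4.46 on the log2 scale (adjusted p = 0.000137). Gpc6, a glypican, was at −3.44 in all 4C libraries and at 2.48, 2.77 and 2.35 in 4C11−, at least 13.9-fold higher (adjusted p = 6.22e-05).

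Other genes with this profile were Zfp618, Enpp5, Casd1, Rnf130 and the integrin gene Itgb8, at least 26.6-, 36.8-, 21.7-, 16.7- and 8.28-fold higher than 4C, respectively. By contrast, Prdm16, a transcriptional regulator of the PR domain family, and the phospholipase gene Pla2g5 were near the floor in melan-a as well (mean −2.87 for both). In 4C11− they reached 2.33, 3.39 and 2.86 log2 CPM and 3.30, 2.91 and 2.32, and Prdm16 was higher still in 4C11+ (mean 6.22). Of the 61 genes, 8 were not detected throughout either of the remaining lines, among them Htr3a and the semaphorin gene Sema4a, which was at least 14.6-fold higher in 4C11− (adjusted p = 0.0064).

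**Figure D2:**
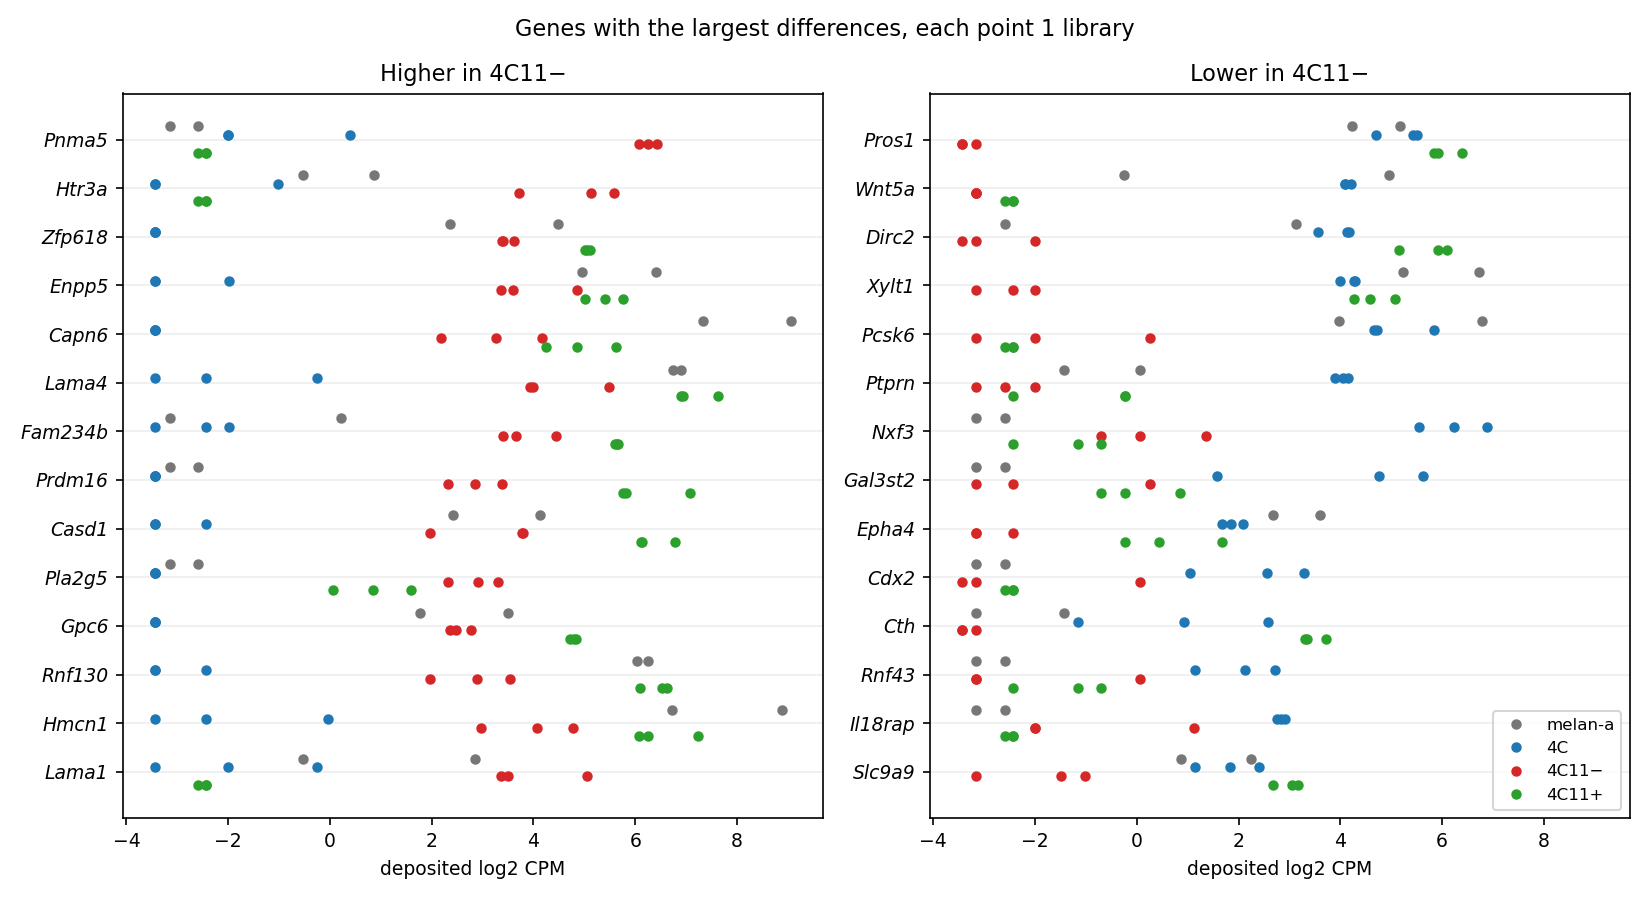
Deposited log2 CPM (horizontal axis) of the higher and lower genes with the largest differences, with 1 point per library and the lines melan-a (2 libraries), 4C, 4C11− and 4C11+ (3 each) in colors. For Capn6, Enpp5, Rnf130 and Hmcn1 the 4C points lie to the left of those of all remaining lines, while Pnma5 is high in 4C11− alone.

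Of 51 matrix genes with a value, 4 were higher and 0 lower, where 1.26% of all genes were higher, and the median of the list was 0.01. Lama4, the α4 chain of laminins, was at −0.25, −2.44 and −3.44 log2 CPM in 4C and 5.49, 3.99 and 3.93 in 4C11−, a difference of 6.52 (SE 0.69, adjusted p = 0.00054). Lama1, the α1 chain, rose by 5.87 (SE 0.95, adjusted p = 0.0094), from −0.25, −2.01 and −3.44 to 5.04, 3.50 and 3.37. Both laminin chains were highest in replicate 1 of each line, and both calls were kept in the 6 fits without 1 library.

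The type IV collagen gene Col4a2 rose by 2.82 on the log2 scale (SE 0.45, adjusted p = 0.0085), from 3.46, 1.78 and 2.55 to 5.53, 5.51 and 5.20, and Col27a1 by 2.25 (adjusted p = 0.048, or 0.117 without 4C11− replicate 1). In the fits without 1 library, Col4a2 was called in 5 of 6 (adjusted p up to 0.0525) and Col27a1 in 1. The head-to-head neighbor of Col4a2, Col4a1, was 2.11 higher but did not pass the test (adjusted p = 0.34). Hmcn1, which encodes the basement membrane protein hemicentin, rose by 5.91 (adjusted p = 0.0036). The most abundant matrix genes, Col1a1, Sparc and Col5a1, were at 9.74 to 10.9 log2 CPM in all 6 libraries and did not pass the test (adjusted p = 0.62, 0.98 and 0.66). Itgb8, above, was the single member called among 33 integrin and focal adhesion genes, and Myl9, a regulatory light chain of nonmuscle and smooth muscle myosin, the single one of 19 contractile genes, with a difference of 5.57 (SE 0.58, adjusted p = 0.00048).

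Genes of growth factors and receptor tyrosine kinases moved in both directions. Of 45, 2 were higher and 3 lower, where 1.67% of all genes were called, and the median was 0.09. Igf2 (chr7:142650766-142666816, minus strand), an imprinted growth factor of fetal tissues, rose from 4.38, 3.82 and 4.77 log2 CPM in 4C to 8.72, 8.83 and 8.50 in 4C11−. The difference of 4.36 (SE 0.47, adjusted p = 0.00067) was a 20.5-fold increase, and the means in melan-a and 4C11+ were 0.32 and −1.43. Met, the receptor of hepatocyte growth factor, fell by 2.14 (SE 0.29, adjusted p = 0.0028), from 5.34, 5.29 and 5.57 to 2.72, 3.42 and 3.65, below the means of melan-a (7.36) and 4C11+ (7.17). The libraries of the 2 lines did not overlap for either gene.

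Nrp2, a coreceptor of semaphorins and vascular endothelial growth factors, was abundant and fell by 1.55 (adjusted p = 0.020, or 0.052 without 4C11− replicate 1). Flt1, a receptor of vascular endothelial growth factors, rose by 3.33, from 1.13, 0.08 and −0.70 to 3.62, 3.76 and 3.11 (adjusted p = 0.040, or 0.091 without that library). Among 29 genes of ERK output, the ERK phosphatase gene Dusp9 was the single call, rising by 4.38 (SE 0.73, adjusted p = 0.011), from 2.60, 1.84 and 0.63 to 6.35, 6.20 and 5.66. It was called in 3 of the 6 fits without 1 library (adjusted p up to 0.0630). The median difference was 0.27 for the 11 feedback inhibitors of this list, Dusp9 among them. It was 0.80 for the 14 transcription factors and 0.73 for the 4 other output genes, against 0.01 over all genes. Among 31 chemokine and cytokine genes, Il11ra1, the interleukin-11 receptor, rose by 2.35 (adjusted p = 0.0017), and Lifr, the receptor of leukemia inhibitory factor, fell by 1.74 (adjusted p = 0.038, or 0.095 without 4C11− replicate 1). Both signal through Il6st, which differed by 0.07 (adjusted p = 0.95). Of 16 ion channel genes, 2 were higher, namely Htr3a and Cacna1h, where 1.26% of all genes were higher. Cacna1h, a T-type calcium channel, rose by 5.40 (adjusted p = 0.015) and was called in 4 of the 6 fits without 1 library (adjusted p up to 0.0698).

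Cdh5, known for the adherens junctions of endothelial cells, rose by 5.65 (SE 0.97, adjusted p = 0.013), from 4.01, −0.70 and 0.44 log2 CPM in 4C to 6.73, 7.43 and 6.54. In 4C, replicate 1 was far above the other two, and Cdh5 was called in 3 of the 6 fits without 1 library (adjusted p up to 0.0745). Of the 11 endothelial markers, 4 had a value. Cdh5 and Flt1 were higher, whereas Egfl7 and Vwf differed by −0.32 and 0.42 (adjusted p = 0.79 and 0.86). The summed level of the 4 was 3.56 to 5.04 on the log2 scale in 4C and 6.79 to 7.61 in 4C11−. In 4C11− most of this sum was Cdh5, which was at 6.54 to 7.43 by itself. The part of endothelial cells in these levels was not tested.

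Imprinted genes were inspected as a group. Of 13 with a value, 2 were higher, Igf2 and Usp29, and 0 lower, where 1.26% of all genes were higher. The median of the list was 0.97. Usp29, a deubiquitinase gene, was at −0.04, −3.44 and −1.16 log2 CPM in 4C and 1.73, 2.77 and 2.96 in 4C11−, a difference of 4.03 (adjusted p = 0.022), and was called in 2 of the 6 fits without 1 library (adjusted p up to 0.0989). Peg3, its neighbor that shares an imprinted domain, was at 6.49, 4.92 and 5.90 in 4C and 7.05, 8.87 and 9.17 in 4C11−, without overlap, and lay just outside the threshold with a difference of 2.60 (adjusted p = 0.052). Without 4C11− replicate 1, 4 of the 13 were called.

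Interferon-stimulated genes, which encode antiviral effectors, leaned upward. Of 53 with a value, 4 were higher and 0 lower, where 1.26% of all genes were higher. The median was 1.09, and 81.1% of them were above 0 against 50.4% of all genes. Ifit1, an effector that binds viral RNA, rose by 2.09 (adjusted p = 0.020), from 4.02, 3.34 and 3.57 to 5.47, 5.98 and 5.75, and Cmpk2, a mitochondrial nucleotide kinase, by 2.05 (adjusted p = 0.012). Without 1 library they were called in 2 and 3 of 6 fits (adjusted p up to 0.110 and 0.0759). Rtp4 and Rsad2 rose by 4.02 and 3.22 (adjusted p = 0.025 and 0.049), and both calls were lost without 4C11− replicate 1 (adjusted p = 0.073 and 0.111). That library had the highest value of the 6 for 40 of the 53 genes. The summed level of the list was 11.7 on the log2 scale in it, 10.8 and 10.6 in the other two and 10.4 to 10.6 in 4C, and without it the median was 0.50 with 2 genes called.

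Replication-dependent histone genes also leaned to one side, and 0 of 54 passed the test. Of them 94.4% were above 0, against 50.4% of all genes, the median was 0.66 (0.69 without 4C11− replicate 1), and 27 did not overlap between the lines, against 19.3% of all genes. In this case replicate 2 of 4C11− was the highest library for 40 of the 54 genes. Genes of DNA replication and mitosis had a median of 0.18 with 0 of 54 called. The list of 12 histone-modifying enzymes, those that the paper assayed by qPCR, had 0 calls and a median of −0.08. Hdac1, a deacetylase of chromosome 4, came nearest, with 7.02, 6.94 and 6.94 log2 CPM in 4C and 8.07, 7.68 and 7.89 in 4C11− (difference 0.91, adjusted p = 0.054). Nsd1, the H3K36 methyltransferase, was at 6.50 ± 0.31 (SD, n = 3) in 4C and 6.38 ± 0.84 in 4C11−, and Setd2 at 7.47 ± 0.38 and 6.83 ± 1.28. Their differences were −0.12 and −0.64, and became 0.36 and 0.07 without 4C11− replicate 1. The paper's qPCR, normalized to β-actin, had other directions, with Hdac1 progressively reduced along the lines and Setd2 higher in 4C11− than in 4C.

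**Figure D3:**
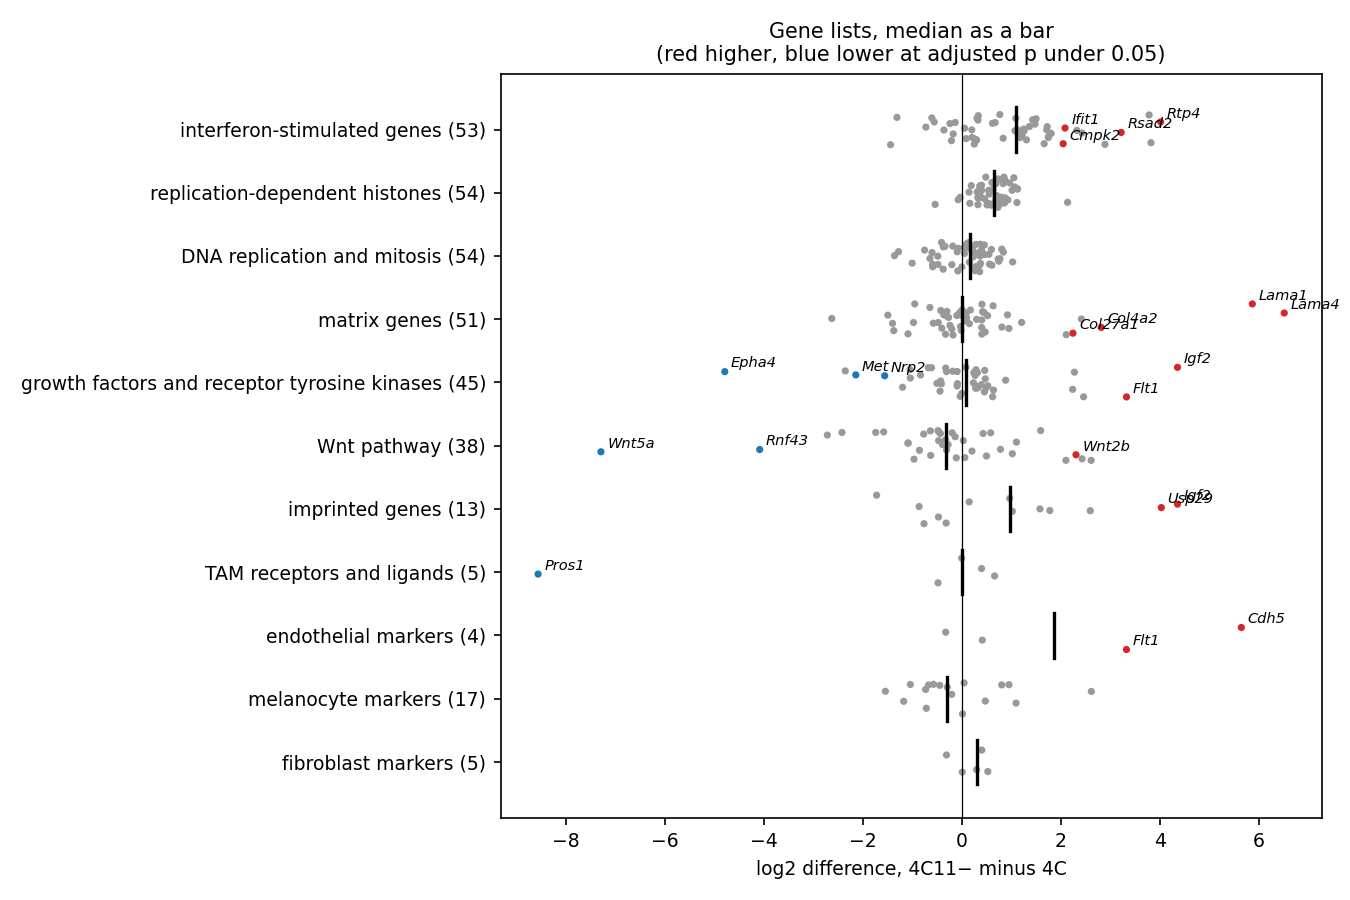
Log2 difference (4C11− minus 4C, horizontal axis) of the members of 11 gene lists, with the number of members in parentheses, a black bar at the median of each list, and genes at an adjusted p under 0.05 (limma) in red when higher and in blue when lower. The medians of the interferon-stimulated and histone genes lie at 1.09 and 0.66, and in the Wnt and TAM lists Wnt5a and Pros1 lie far to the left of the remaining members.

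The 10 hub genes of the midnight blue module were chosen by the study on these samples, and their direction is not independent evidence. Of the 10, 3 were higher and 1 lower, and all 10 had no overlap between the lines. Trabd2b, a metalloprotease that cleaves Wnt ligands, rose by 4.67 (SE 0.48, adjusted p = 0.00048), from −1.01, −0.42 and −0.25 to 3.93, 3.93 and 4.46, and Cdh5 and Flt1 are described above. Ccdc88c, a regulator of Dishevelled, fell by 2.15 (adjusted p = 0.037) and was called in 1 of the 6 fits without 1 library (adjusted p up to 0.161). Of the hubs that were not called, Pla2g7, Ube2t, Mdm1 and M6pr differed by 2.86, 1.09, 0.99 and −0.47 (adjusted p from 0.055 to 0.28), and Bace2, at the floor in all 4C11− libraries, was at least 3.84-fold lower (adjusted p = 0.081). Of 10 hubs of the red module, also chosen by the study, 0 were called and the median was −0.10.

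Over all 39 lists, 811 distinct genes had a value, and 21 were higher and 8 lower (3.58%, against 1.67% of all genes). The lists were chosen with earlier results of these data known and include the hubs above. The higher share is therefore not independent evidence. No gene was called in 25 of the lists. Medians over the 39 lists ranged from −0.42 for keratinocyte and epithelial markers to the 1.87 of the 4 endothelial markers. In the former, with 3 genes, the adhesion gene Cdh1 differed by 2.61 (adjusted p = 0.056) and Krt8 by −0.42 (adjusted p = 0.89), and the keratin gene Krt18 was at 9.40, 9.36 and 8.94 log2 CPM in 4C and 8.18, 7.64 and 8.08 in 4C11− without passing the test (adjusted p = 0.22). Regulators and markers of the epithelial-to-mesenchymal transition had a median of −0.02 and TGF-beta and BMP genes one of −0.15, with 0 of 17 and 0 of 38 called.

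Position along the genome separated 3 chromosomes from the remaining ones. The median difference of the 421 genes of chromosome 16 was −0.53 on the log2 scale (0.694-fold), and 86.7% of them were below 0. The 876 genes of chromosome 4 had a median of 0.59 (1.51-fold) with 84.2% above 0, and the 780 genes of chromosome 8 one of 0.40 (1.32-fold) with 77.8% above 0. On the other 17 chromosomes examined, medians lay between −0.18 and 0.06 and the share above 0 between 37.8% and 55.2%. For each gene, the value of a library was then set against the mean of the 6 libraries, with no baseline of the library removed. On the other 17 chromosomes, the medians of these deviations in 4C11− replicate 1 ran from −0.15 (X) to 0.32 (chromosome 19). Its values on chromosomes 4 and 8 may thus in part not be particular to them. The chromosome 16 medians of these deviations were 0.31, 0.28 and 0.29 in 4C and −0.17, −0.23 and −0.26 in 4C11−, and those of chromosome 4 were −0.18, −0.31 and −0.32 in 4C and 0.53, 0.29 and 0.25 in 4C11−. For chromosome 8 they were −0.13, −0.21 and −0.23 against 0.45, 0.22 and 0.10.

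The 2 lines therefore did not overlap for these chromosomes, with an exact two-sided permutation p of 0.1 for each, the smallest that 3 against 3 libraries can give, which chromosome 3 also reached with a median of −0.15. With 1 library left out at a time, the medians were −0.55 to −0.48 for chromosome 16, 0.54 to 0.64 for chromosome 4 and 0.39 to 0.50 for chromosome 8. The shifts ran along most of each chromosome. In windows of 25 consecutive genes, 16 of 16 windows of chromosome 16 had a median below 0 (−0.99 to −0.34), 34 of 35 of chromosome 4 one above 0 and 30 of 31 of chromosome 8 one above 0. Some other chromosomes also had windows mostly on one side. Below 0 were 14 of 16 windows of X and 27 of 36 of chromosome 1, against 19 of 41 of chromosome 7. DNA copy number was not measured, and its part in the shifts of chromosomes 4, 8 and 16 was not tested.

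**Figure D4:**
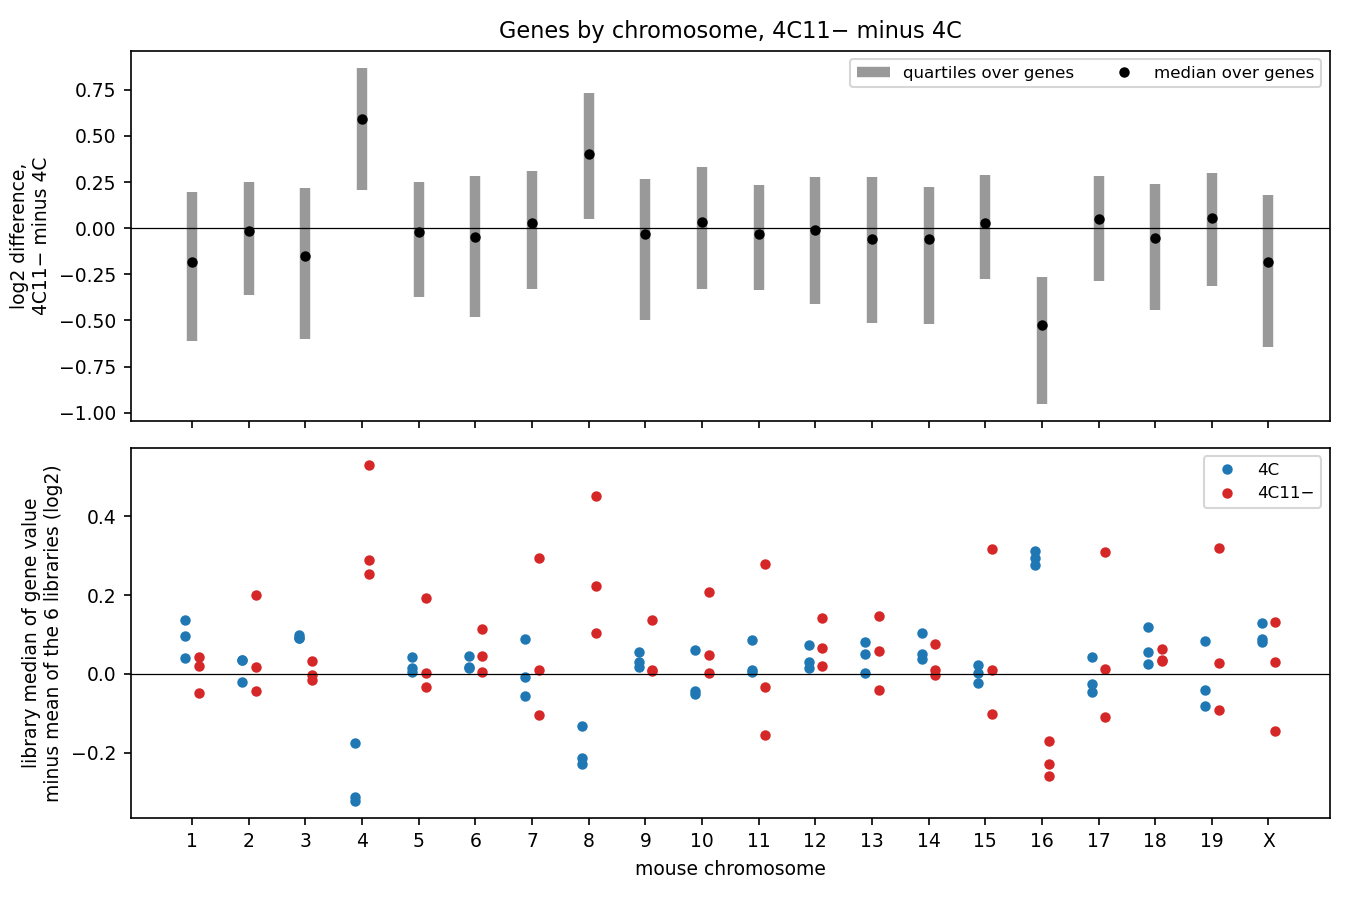
Top, median (point) and quartiles (bar) of the log2 differences, 4C11− minus 4C, of the genes of each mouse chromosome. Bottom, median deviation of the genes of each chromosome in each library of 4C and 4C11− from the mean of the 6 libraries (log2). The lines are separated on chromosomes 4, 8 and 16. The top point of 4C11− is replicate 1 on chromosomes 4 and 8, and also on others such as 7 and 19.

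**Figure D5:**
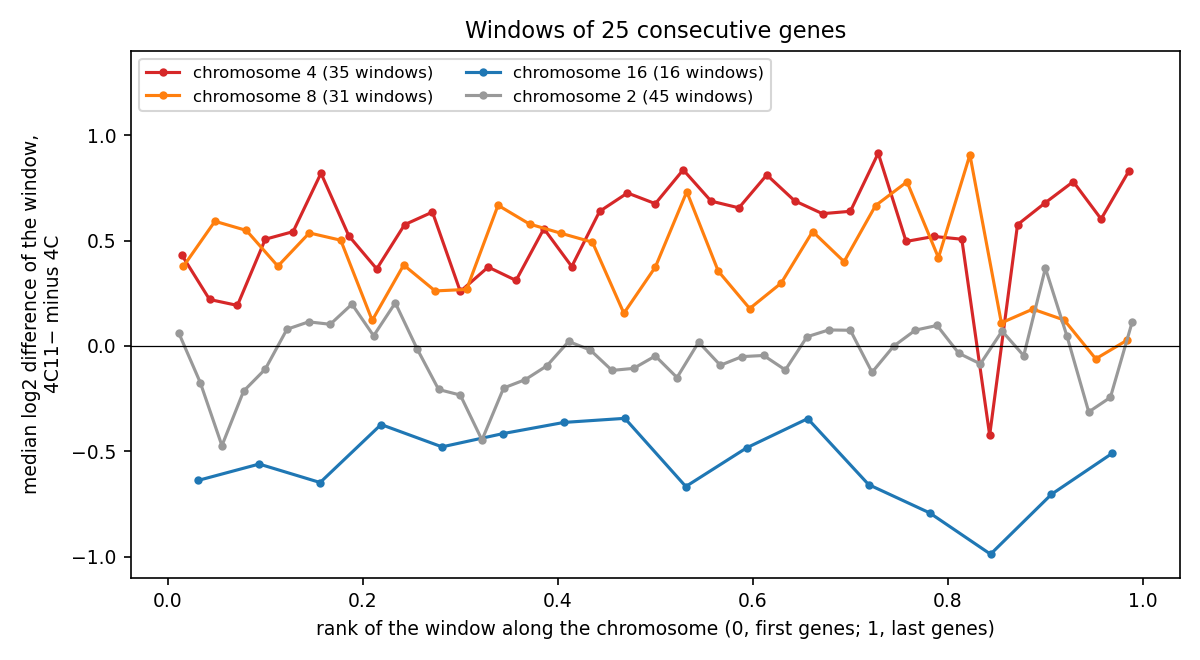
Median log2 difference (4C11− minus 4C, vertical axis) in windows of 25 consecutive genes, by the rank of the window along the chromosome (horizontal axis), for chromosomes 4, 8 and 16 and, as a comparison, chromosome 2. All 16 windows of chromosome 16 lie below 0, and those of chromosome 2 vary around 0.

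Chromosomes 4, 8 and 16 held 62 of the 238 called genes, and 876, 780 and 421 of the 14229 genes on the chromosomes examined. The other 17 chromosomes held 12152 genes, with 130 higher and 45 lower. On chromosome 4, 34 genes were higher and 0 lower, on chromosome 8, 15 were higher and 2 lower, and on chromosome 16, 1 was higher and 10 were lower, the last including Pros1 and Dirc2. Of 31 higher genes with a difference under 1.5, a limit set after the values were seen, 28 lay on chromosome 4 or 8. Among the 149 higher genes with a larger difference the number was 21. Both counts are to be read against the 876 and 780 genes of these chromosomes among 14229. Of the 11 lower genes with a difference under 1.5 in size, 5 lay on chromosome 16 and 1 on chromosome 8. Rps6, a ribosomal protein gene of chromosome 4 picked after the values were seen, rose by 0.87 on the log2 scale (adjusted p = 0.032, or 0.073 without 4C11− replicate 1), where the median of its chromosome was 0.59. Prdm16, Zfp618, Pla2g5 and Trabd2b, also on chromosome 4, and Pros1 on chromosome 16 were changed far beyond the medians of their chromosomes. Relative to the mean of the 11 libraries, chromosome 16 genes were lowest in 4C11− (−0.37 to −0.32, against 0.02 to 0.44 in the libraries of the remaining lines), while the melan-a libraries lay at 0.27 and 0.30 for chromosome 4 and at 0.30 and 0.34 for chromosome 8, within the range of 4C11− and above the 3 libraries of 4C.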

How the data were processed

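Stranded total RNA libraries were sequenced from triplicate cultures, and 11 libraries were used here (2 of melan-a, whose replicate 1 is not analysed here, and 3 from every other line). The authors trimmed reads with Trimmomatic, aligned them to GRCm38 with STAR, counted them over Ensembl 90 genes with Rsubread, kept genes with at least 1 CPM in 4 or more libraries, and deposited log2 CPM values from limma voom. Versions are not given in the sources used here. The highest value was shared by all libraries, so the deposited log2 values had been brought to a common distribution. Ratios of the lines are therefore relative to that distribution. The depth was estimated from the steps between low values, and counting error was not modelled further.

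The deposited values were fitted with limma 3.58.1 in R 4.3.3 (4 line means, 11 libraries, moderated variances with a trend on the level, and Benjamini-Hochberg adjustment over 14272 genes), with a threshold of 0.05. The SE of a difference pools the spread of the 4 lines. Named genes were the 15 with the largest differences in each direction among called genes without overlap, with predicted genes, Rik genes and pseudogenes left out, and the called and most abundant members of the gene lists. A few genes that meet this rule are not reported here. Members and lists were chosen with earlier results of these data known. On simulated data, with 200 of 14272 genes changed between 4C and 4C11−, the fit was tested and recovered 0% of changes of 1 on the log2 scale, 57% of changes of 2 and 91% of changes of 4. Alternatives were other filters, normalizations, weights and fits, and leaving out each library. Promoter sequences were taken from RefSeq.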

Additional observations from a re-analysis of the deposited data

How the results depend on the processing

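The counts of 180 higher and 58 lower genes became 106 and 37 with only the 6 libraries of both lines (143 in all). Of the 238 genes called with all 11 libraries, 123 were also called there. Cdh5, Usp29 and Ccdc88c were not (limma, adjusted p = 0.058, 0.091 and 0.145). The counts were 94 and 31 with genes of a mean log2 value under 1 left out (125). They were 57 and 11 when tested against a log2 difference of 1 (68). With array weights the counts became 1409 and 1092 (2501). These weights used the gene-by-gene method, added after seeing the data because the default method gave degenerate values, and ran from 0.219 for 4C11− replicate 1 to 4.71 for 1 library of 4C11+. With only 4C and 4C11− and without 4C11− replicate 1, also added after seeing the data, 82 genes were higher of 139 called. With 1 library left out at a time, the counts were 70 to 186 higher, 19 to 68 lower and 93 to 221 in all. The totals were 93 without 4C replicate 2, 113 without 4C replicate 3 and 97 without 4C11− replicate 2, and the lower count was 35 without 4C replicate 1. Of the genes of the 39 lists, 29 were called, against 13 with low genes left out, 226 with array weights, 11 at a log2 difference of 1, and 14 to 29 with each library left out. The cause of these changes was not tested. The chromosome 16 median was −0.55 to −0.48 with each library left out. Counts under further quantile normalization, centring, no trend and robust estimation stayed within 1.5 times, and no named gene changed sign where it was called. Depth limits statements on genes near 3 reads, which are given as bounds.

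The replicate numbers shared by 4C and 4C11− were not treated as pairs, since the correlations of same-numbered deviations were 0.245, 0.166 and 0.036 and 4C replicate 2 correlated more with 4C11− replicate 3 (0.294). With a replicate block, 186 genes were higher and 68 lower (254), and 37 genes of the lists were called.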

Other observations

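Genes near the ones above were inspected after their values were seen. Among Hedgehog pathway genes, Gli2, a transcription factor of the pathway, was at 5.75, 5.95 and 5.91 log2 CPM in 4C and 7.82, 8.13 and 7.72 in 4C11−. Its difference of 2.02 passed the test with limma (adjusted p = 0.027, or 0.064 without 4C11− replicate 1). Gli1, Gli3, Ptch1 and Smo differed by 0.42, −0.76, 0.11 and −0.04 on the log2 scale and did not (adjusted p = 0.61, 0.27, 0.92 and 0.96). Gli2 and Gli1 were abundant in both mesenchymal-like lines, whereas the means of Gli2 were −2.87 in melan-a and −2.01 in 4C11+.

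The type IV collagen genes Col4a3 and Col4a4, which encode chains of specialized basement membranes, rose by 3.34 and 3.21 (adjusted p = 0.033 and 0.0024). Sox18, a transcription factor of endothelial and lymphatic development, rose by 3.45 (adjusted p = 0.0035), from 1.65, 0.93 and 0.63 to 4.51, 4.98 and 4.05. Ecscr, an endothelial surface protein gene, rose by 3.20 (adjusted p = 0.018, or 0.054 without 4C11− replicate 1). Its mean was 2.64 log2 CPM in 4C11−, higher still in 4C11+ (4.74) and −2.24 in melan-a. Of the listed endothelial markers with a value, Cdh5 and Flt1 were called, and Egfl7 and Vwf were not. Among lower genes, Cadm1, an adhesion molecule of the immunoglobulin family, fell by 3.25 (adjusted p = 0.00099), from 7.66, 7.95 and 8.25 to 4.42, 4.57 and 5.11, and Runx1, a transcription factor, by 2.76 (adjusted p = 0.025, or 0.070 without 4C11− replicate 1).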
